A study of Homo sapiens with 6 samples.

Results

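Semaphorins, plexins, neuropilins, ephrins and Eph receptors are cell surface and secreted proteins through which neighbouring cells steer each other's attachment, shape and movement. The genes were chosen by symbol from the deposited table of expressed genes, as protein-coding rows named SEMA3 to SEMA7, PLXNA to PLXND, EPHA, EPHB, EFNA, EFNB, NRP1 or NRP2. The only measured value in that choice was the row itself, since every row of the table held at least 1 read over the 6 libraries. The choice gave 52 of the 30403 genes in the table, with 19 semaphorins, 9 plexins, 2 neuropilins, 14 Eph receptors and 8 ephrins. The families were taken up with earlier results of these libraries in view, so counts over them are a description, and no test over the group was made.

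Semaphorins are ligands that signal through plexins. Class 3 semaphorins are secreted and most of them need a neuropilin as co-receptor, while classes 4 to 7 are tethered to the membrane. Plexins carry a cytoplasmic GTPase-activating domain that acts on small Ras-family GTPases, which loosens integrin adhesion and reshapes the actin cytoskeleton. Eph receptors are the largest family of receptor tyrosine kinases. Their ligands, the ephrins, are held on the membrane of the neighbouring cell, by a lipid anchor for ephrin-A and by a transmembrane segment for ephrin-B, and ephrin-B also signals back into its own cell. In the kidney, these proteins are known from nephron and vessel development and from tubular repair.

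The cells were HK-2, an established and immortalised line of human proximal tubule epithelium. They were transfected with a plasmid encoding a short hairpin RNA against PARP1 (shPARP1) or a control hairpin (shCtrl) and harvested after 48 h, with 3 libraries per group and no other treatment in either group. PARP1 encodes a nuclear enzyme that binds DNA breaks and chromatin and attaches poly(ADP-ribose) to proteins. The title of the series names PARP1 regulation of extracellular matrix genes in renal tubular cells, and the comparison here asks how guidance ligands and receptors stood in the same libraries. The number of hairpin sequences is not given in the sources used here, so effects of 1 hairpin and of PARP1 loss cannot be told apart.

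Polyadenylated RNA was sequenced, and the 3 shCtrl libraries held 24429683 to 26269194 counts and the 3 shPARP1 libraries 29387853 to 32809303. Values are counts scaled to the TMM-adjusted library size (CPM), for which 3 counts corresponded to 0.0911 to 0.125 CPM. PARP1 itself went from 261 ± 2.37 to 27.3 ± 1.37 CPM (SD, n = 3 per group), which left 10.4% ± 0.524 of the control level. Of 16 proximal tubule markers, 9 reached 1 CPM in a group mean, among them PAX8, GGT1 and CDH6, while LRP2, SLC22A6 and HNF4A stayed under 3 counts per library on average. Of the defining markers of other cell types, PECAM1, CDH5, CD3E, SOX10 and PDGFRA likewise stayed under that level. Other members of those lists were present in shCtrl, among them COL1A1 at 68.6, LUM at 14.8, SCNN1A at 10.2, CD14 at 8.14, CD68 at 6.498, PDGFRB at 5.84, MBP at 4.74 and TIE1 at 2.10 CPM. The summed proximal tubule list held 2543 to 2604 CPM in shCtrl and 2316 to 2349 CPM in shPARP1. A large part of that sum was VIM, at 1077 and 1119 CPM, and KRT18, at 240 and 361 CPM. Of the list, 6 genes were called lower, among them CDH6 (446 to 215 CPM) and PAX8 (417 to 345 CPM), and KRT18 alone higher. The summed leukocyte list held 14.4 to 16.0 CPM in shCtrl and 11.8 to 13.1 CPM in shPARP1, where CD68 and FCER1G were called higher and CD14 alone lower. The fibroblast sum was 87.2 to 93.1 against 72.1 to 76.8 CPM, with COL1A1, LUM and PDGFRB called lower and THY1 higher. The sums were 3.73 to 3.88 against 2.32 to 2.76 CPM for endothelium, 10.8 to 12.7 against 8.68 to 9.91 CPM for neurons and glia, and 9.32 to 11.7 against 5.37 to 5.98 CPM for the distal nephron. The part of these shifts in the results was not tested. The labels do not say whether the libraries came from separate cultures, so the p-values refer to variation among these libraries alone, and that variation may be technical.

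Stretches of 200 bases before the start are shown for the most strongly raised gene, SEMA7A, and for SEMA4C and PLXNB2, a membrane semaphorin and its plexin receptor that were both lower. They are RefSeq starts on GRCh38.p14, all on the minus strand and read 5′ to 3′, at chr15:74433959-74434158, chr2:96870081-96870280 and chr22:50301670-50301869. Capitals mark GC boxes (GGGCGG on either strand) and, in SEMA4C, a cAMP response element (TGACGTCA on either strand). None of the windows overlapped an annotated exon in GENCODE 29, and the last 2 lie inside introns of longer gene models.

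SEMA7A: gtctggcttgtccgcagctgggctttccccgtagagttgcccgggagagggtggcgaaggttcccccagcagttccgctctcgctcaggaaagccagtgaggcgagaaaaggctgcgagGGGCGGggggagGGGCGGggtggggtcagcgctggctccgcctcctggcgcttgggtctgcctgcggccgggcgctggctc
SEMA4C: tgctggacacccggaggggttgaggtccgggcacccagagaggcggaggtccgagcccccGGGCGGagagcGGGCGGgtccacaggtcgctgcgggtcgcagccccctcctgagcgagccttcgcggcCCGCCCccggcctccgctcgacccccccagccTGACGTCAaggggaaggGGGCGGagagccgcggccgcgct
PLXNB2: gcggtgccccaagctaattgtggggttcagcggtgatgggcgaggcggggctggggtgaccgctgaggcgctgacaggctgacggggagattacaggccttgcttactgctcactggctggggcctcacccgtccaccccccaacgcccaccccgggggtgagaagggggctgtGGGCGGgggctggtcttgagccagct

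The GC box was found 2 times in the SEMA7A stretch, 4 times in that of SEMA4C and 1 time in that of PLXNB2, and it was common to both directions of change. Over 250 bases before the start, 37 of 46 family genes with an entry (80.4%) held a GC box, against 42.3% of all 27305 genes with an entry. Of those tested for expression, 31 of 38 family genes (81.6%) and 67.7% of all 10389 held it. It was present for 24 of 26 genes that fell and 2 of 3 that rose. The cAMP response element was present in 2 of 46 (4.3%), against 1.8% of all and 2.8% of tested genes. Of 4 other motifs searched on both strands, the CCAAT box (CCAAT) was in 16 of 46 family genes (34.8%), against 9021 of all 27305 and 34.8% of tested genes. The E-box (CACGTG) was in 6.5% of family genes, against 6.5% of all and 9.2% of tested genes. The TATA box (TATAAA) was in 2.2% against 11.1% of all and 5.1% of tested genes, and the AP-1 site (TGANTCA) in 2.2% against 6.6% and 4.0%. Among the 38 tested family genes, the cAMP response element and the E-box were each in 5.3% and the CCAAT box in 34.2%. The TATA box was in 2.6% of these and the AP-1 site in 0.0%. These are letter matches only, and no binding was measured here.

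Most of the genes that could be tested were lower after PARP1 knockdown. Of the 52 genes, 43 had enough counts for the test, and 30 of them fell, 3 rose and 10 did not pass (edgeR quasi-likelihood test, Benjamini-Hochberg adjusted p under 0.05 over all genes). Over all 16040 genes tested, 28.5% were called lower, 27.3% higher and 55.7% in either direction. The median log2 fold change, shPARP1 against shCtrl, was -0.51 over the 43 genes and -0.01 over all genes tested. A change of at least 1.5-fold was called for 15 falls and 1 rise, against 21.4% of all genes in either direction. In 34 of the 43, every library of one group lay above every library of the other, which was so for 60.1% of all genes. In bulk RNA, fewer cells that express a gene and less RNA per cell cannot be told apart.

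**Figure D1:**
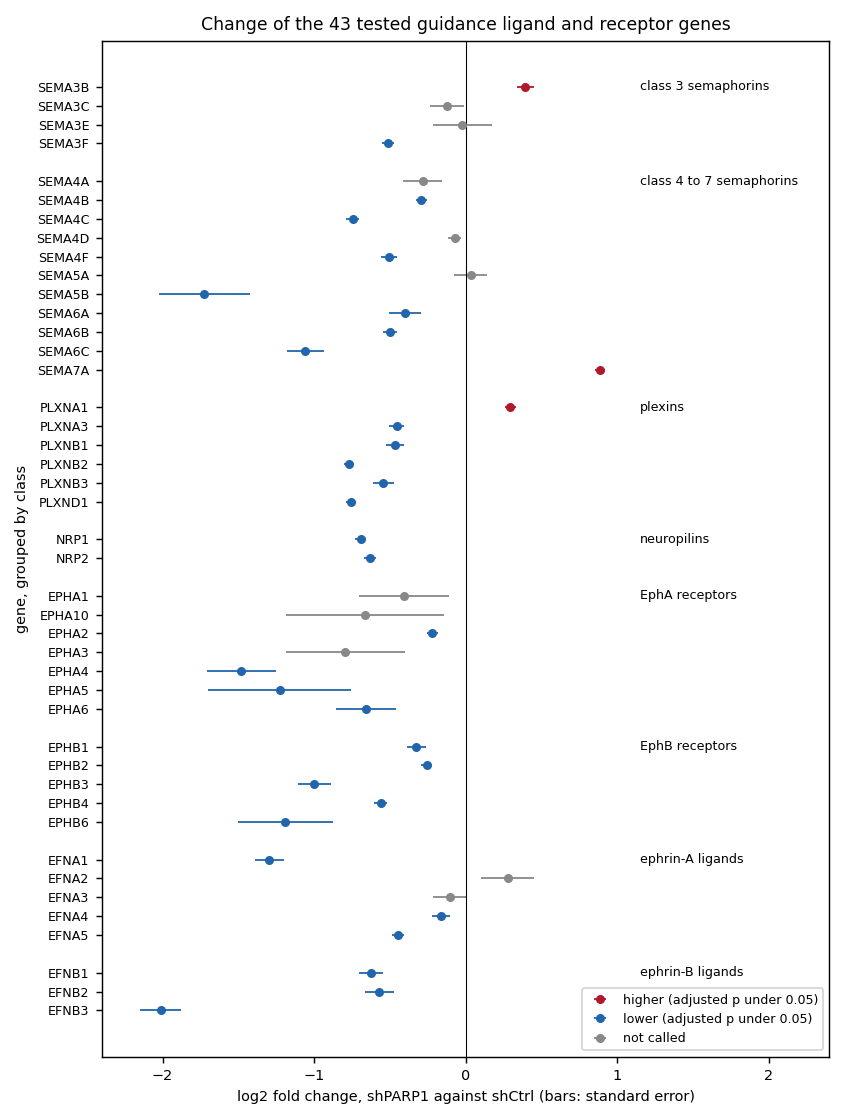
Log2 fold change of each of the 43 tested genes, shPARP1 against shCtrl, with its standard error, grouped by class. SEMA7A at 0.89, SEMA3B at 0.39 and PLXNA1 at 0.30 are the rises, and EFNB3 at -2.01 is the deepest fall.

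Among the secreted class 3 semaphorins, SEMA3F and SEMA3B carried most of the reads and moved in opposite directions. SEMA3F, a repellent that binds neuropilin-2, stood at 147, 147 and 141 CPM in shCtrl and at 107, 101 and 96.4 CPM in shPARP1. All 3 knockdown libraries lay below all controls, and the gene fell by 0.51 on the log2 scale (SE 0.04, edgeR adjusted p = 4.39e-16). SEMA3B, known as a candidate tumour suppressor of the same chromosome arm, rose from 44.0 ± 2.88 to 57.8 ± 3.16 CPM (log2 fold change 0.39, edgeR adjusted p = 1.12e-08). The genes are neighbours on chromosome 3 on the plus strand, SEMA3F from 50155045 to 50189075 and SEMA3B from 50267558 to 50277546, with 78.5 kb between them. SEMA3C, at 10.8 ± 2.52 and 9.97 ± 0.748 CPM, and SEMA3E, at 2.88 ± 0.707 and 2.83 ± 0.655 CPM, did not pass the test. SEMA3A, SEMA3D and SEMA3G had 0 to 8 counts in any library and were not tested.

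Of 11 tested membrane-bound semaphorins, 7 fell and SEMA7A was the one that rose, against 28.5% called lower and 27.3% called higher over all genes. SEMA7A, which is lipid-anchored and signals through plexin C1 and through integrin beta-1, spans 74409289 to 74433958 on chromosome 15, minus strand. It stood at 280.3, 269 and 275 CPM in shCtrl and at 529, 512 and 486 CPM in shPARP1. Every knockdown library lay far above every control, a 1.85-fold rise (log2 fold change 0.89, SE 0.03, edgeR adjusted p = 4.45e-30). SEMA4C, a ligand of plexin B2, stood at 182, 173 and 169 CPM in shCtrl and at 112, 102 and 99.2 CPM in shPARP1. The groups were well apart, and SEMA4C was 1.68-fold lower (log2 fold change -0.74, edgeR adjusted p = 4.97e-22). SEMA6C, a transmembrane semaphorin of the nervous system and muscle, stood at 11.4, 10.0 and 10.1 CPM in shCtrl and at 5.95, 4.41 and 4.70 CPM in shPARP1, without overlap (log2 fold change -1.06, edgeR adjusted p = 3.88e-11).

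The other falls were smaller or came from fewer reads. SEMA4B, the membrane semaphorin with the most reads in shCtrl, went from 361 ± 4.16 to 295 ± 13.5 CPM (log2 fold change -0.29, and -0.11 with a correction for gene length and GC content described further on). SEMA4F (-0.51), SEMA6B (-0.50, and -0.26 so corrected) and SEMA6A (-0.40) fell as well, and the call of SEMA6A ended with the length and GC correction (log2 fold change -0.21, edgeR adjusted p = 0.0772). SEMA5B had the largest log2 fold change of the semaphorins (-1.72, SE 0.30), with 37, 49 and 63 counts in the control libraries and 14, 21 and 20 after knockdown. SEMA4D, a ligand of plexin B1 that is shed from the membrane, stood at 99.4 ± 3.60 and 94.6 ± 1.00 CPM and did not pass (log2 fold change -0.07, edgeR adjusted p = 0.156). With the effect of exon length and base composition fitted out, the value for SEMA4D turned to 0.15 (edgeR adjusted p = 0.000381). SEMA4A (-0.28, edgeR adjusted p = 0.0558; 0.0460 without shCtrl replicate 3 and 0.0488 with edgeR's likelihood-ratio test) and SEMA5A (0.03, edgeR adjusted p = 0.820) did not pass either, and SEMA4G was not tested, with 0 to 5 counts in any library.

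The semaphorin receptors were lower apart from PLXNA1. Of 6 tested plexins, 5 fell and 1 rose, against 28.5% called lower and 27.3% called higher over all genes. PLXNB2, the plexin with the most reads and a receptor for class 4 semaphorins, stood at 742, 702 and 695 CPM in shCtrl and at 426, 417 and 411 CPM in shPARP1. No knockdown library came near a control, and PLXNB2 was 1.71-fold lower (log2 fold change -0.77, SE 0.03, edgeR adjusted p = 2.04e-28). PLXND1, the receptor that binds SEMA3E without a neuropilin and is known from vessel patterning, stood at 528, 501 and 492 CPM in shCtrl and at 301, 308 and 292 CPM in shPARP1. Its fall was of like size (log2 fold change -0.76, SE 0.03, edgeR adjusted p = 4.1e-27).

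PLXNA1, a signalling partner of the neuropilins, rose from 191 ± 10.5 to 235 ± 8.81 CPM (log2 fold change 0.30, edgeR adjusted p = 2.38e-09). Its close relative PLXNA3 fell by 0.45 on the log2 scale, and the B plexins PLXNB1 (-0.46) and PLXNB3 (-0.54) fell as well. With the length and GC correction these values were -0.26, -0.24 and -0.30. SRPK3 shares 20.4% of the PLXNB3 exon bases on the same strand, so reads may have been split between them. PLXNA2, PLXNA4 and PLXNC1 had 0 to 10 counts in any library and were not tested.

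Both neuropilins fell. NRP1, a co-receptor for class 3 semaphorins and for vascular endothelial growth factor, stood at 241, 236 and 247 CPM in shCtrl and at 145, 152 and 152 CPM in shPARP1 (log2 fold change -0.69, SE 0.04, edgeR adjusted p = 9.47e-24). NRP2 stood at 163, 163 and 158 CPM in shCtrl and at 105, 104 and 103 CPM in shPARP1 (log2 fold change -0.63, SE 0.04, edgeR adjusted p = 7.43e-21), and its value was -0.41 with the length and GC correction. For both genes the 3 libraries of a group lay close together and the groups did not overlap.

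**Figure D2:**
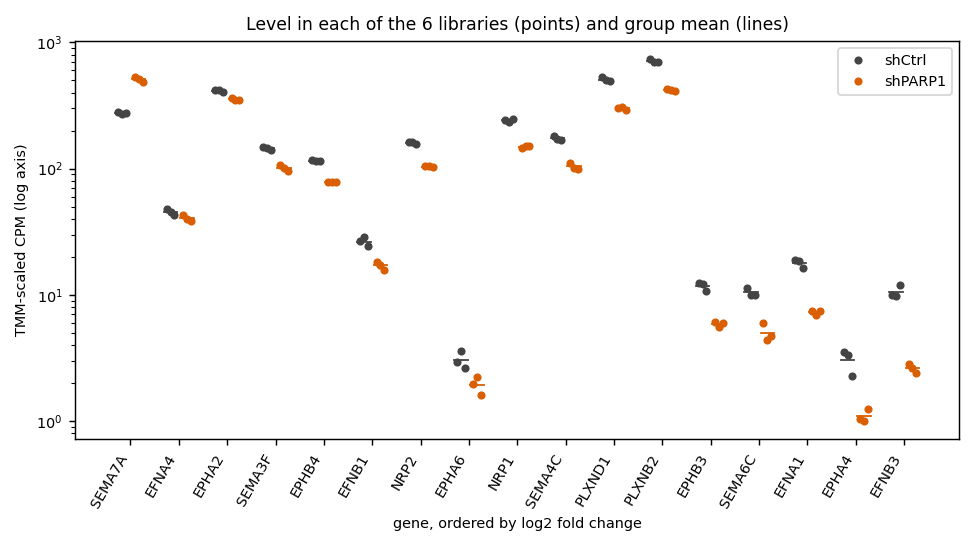
TMM-scaled CPM on a log axis in each of the 6 libraries for the 17 genes described library by library, ordered by log2 fold change, with lines at the group means. SEMA7A is the only one of these 17 higher in shPARP1, and the groups overlap for EFNA4 alone.

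Tested Eph receptors fell or did not pass the test, and none rose. EPHA2, the main Eph receptor of many epithelial cells, stood at 417, 416 and 403 CPM in shCtrl and at 366, 349 and 348 CPM in shPARP1. The groups were separate, but the difference was small (log2 fold change -0.22, SE 0.03, edgeR adjusted p = 7.81e-08), and it was -0.135 with the length and GC correction. EPHA4, which binds ephrins of both classes, had far fewer reads and a far larger change. It stood at 3.55, 3.35 and 2.27 CPM in shCtrl and at 1.03, 1.00 and 1.24 CPM in shPARP1, which is 2.79-fold lower (log2 fold change -1.48, SE 0.23, edgeR adjusted p = 1.19e-07). EPHA6 stood at 2.97, 3.62 and 2.61 CPM in shCtrl and at 1.97, 2.24 and 1.61 CPM in shPARP1, with a narrow gap between the groups (log2 fold change -0.66, edgeR adjusted p = 0.00411).

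EPHA5 passed the test on 5 to 30 counts per library with overlapping groups (log2 fold change -1.23, edgeR adjusted p = 0.0235). Without shCtrl replicate 3, which held 30 of its counts, the value was -0.61 (edgeR adjusted p = 0.386), and the call also ended without shPARP1 replicate 1 (edgeR adjusted p = 0.149) or 3 (0.0513), with DESeq2 (0.0693) and with limma-voom (0.0509). It ended too with limma-trend on log2(FPKM + 1) (-0.05, adjusted p = 0.314) and log2(FPKM + 0.1) (-0.32, adjusted p = 0.223). EPHA1, EPHA3 and EPHA10 did not pass, at 0.254 to 1.37 CPM in the group means. Without shPARP1 replicate 1, EPHA3 went from -0.79 (edgeR adjusted p = 0.0794) to -1.15 (edgeR adjusted p = 0.0395), and edgeR's likelihood-ratio test gave an adjusted p of 0.0495. EPHA7 and EPHA8 had 0 to 3 counts in any library and were not tested.

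All 5 EphB receptors fell, against 28.5% called lower over all genes. EPHB3, an epithelial receptor known from the intestinal crypt, stood at 12.3, 12.3 and 10.7 CPM in shCtrl and at 6.07, 5.54 and 6.04 CPM in shPARP1, which is 1.999-fold lower (log2 fold change -0.999, SE 0.11, edgeR adjusted p = 1.01e-11). EPHB4, the receptor of ephrin-B2 on veins, stood at 117, 115 and 116 CPM in shCtrl and at 78.8, 78.7 and 78.4 CPM in shPARP1. The spread within each group was under 1 CPM (SD 0.895 and 0.235), and the log2 fold change was -0.56 (SE 0.04, edgeR adjusted p = 1.54e-17). EPHB2, the EphB gene with the most reads, went from 204 ± 2.54 to 171 ± 1.77 CPM (-0.26), and EPHB1 fell by 0.33 on the log2 scale (-0.17 with the length and GC correction). The call of EPHB2 ended with the length and GC correction (log2 fold change -0.06, edgeR adjusted p = 0.0790). EPHB6, which lacks kinase activity, had 15 to 64 counts per library (-1.19, edgeR adjusted p = 0.000950), and its value was -0.81 without shCtrl replicate 3 (edgeR adjusted p = 0.0504).

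Of 5 ephrin-A genes, 3 fell, none rose and 2 did not pass, against 28.5% called lower and 27.3% called higher over all genes. The share called in either direction, 60%, was close to the 55.7% over all genes. EFNA1, the main ligand of EPHA2 and a gene first found as induced by tumour necrosis factor, stood at 18.8, 18.5 and 16.5 CPM in shCtrl and at 7.498, 6.97 and 7.42 CPM in shPARP1. It was 2.45-fold lower with the groups far apart (log2 fold change -1.29, SE 0.09, edgeR adjusted p = 5.24e-18). EFNA5, the ephrin with the most reads, went from 155 ± 7.38 to 114 ± 1.67 CPM (-0.44, edgeR adjusted p = 2.2e-14). EFNA4 stood at 48.0, 45.4 and 42.8 CPM in shCtrl and at 42.9, 40.0 and 38.8 CPM in shPARP1. These groups overlapped, and the small fall (-0.16, edgeR adjusted p = 0.0154) lost its call when shCtrl replicate 1 (edgeR adjusted p = 0.0987) or 2 (0.0502), or shPARP1 replicate 2 (0.0722) or 3 (0.0969), was left out. The call also ended with limma-trend on log2(FPKM + 1) (adjusted p = 0.0875) and log2(FPKM + 0.1) (adjusted p = 0.0863), while the length and GC correction gave a larger value (-0.365, edgeR adjusted p = 6.11e-09). EFNA3, at 8.20 ± 0.555 and 7.63 ± 0.558 CPM, and EFNA2, at 2.86 ± 0.395 and 3.48 ± 0.554 CPM, did not pass.

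EFNA4, EFNA3 and EFNA1 lie in this order on the plus strand of chromosome 1, with 9.3 and 39.9 kb between them, and the deep fall was that of EFNA1 (155127460 to 155134857). A readthrough gene of EFNA4 and EFNA3, RP11-540D14.8 in the table, shares 853 exon bases with EFNA3 (44.7%) and 189 with EFNA4, so reads of these genes may have been split between them. It went from 5.90 ± 0.501 to 3.81 ± 0.606 CPM.

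All 3 ephrin-B genes fell, against 28.5% called lower over all genes, and EFNB3 fell the most of all 43 tested genes. EFNB3, an axon repellent at the midline of the spinal cord that binds EphB receptors and EPHA4, spans 7705202 to 7711378 on chromosome 17, plus strand. It stood at 9.90, 9.86 and 12.03 CPM in shCtrl and at 2.85, 2.63 and 2.38 CPM in shPARP1. No library of one group came near the other, and EFNB3 was 4.03-fold lower (log2 fold change -2.01, SE 0.14, edgeR adjusted p = 1.93e-19). EFNB1, the X-linked gene mutated in craniofrontonasal syndrome, stood at 26.6, 28.5 and 24.3 CPM in shCtrl and at 18.2, 17.4 and 15.8 CPM in shPARP1 (log2 fold change -0.62, edgeR adjusted p = 7.7e-10). EFNB2, the arterial ligand of EPHB4, went from 14.5 ± 0.806 to 9.80 ± 0.674 CPM (-0.57, edgeR adjusted p = 5.35e-07). An antisense gene covers 26.2% of the EFNB2 exon bases, and the strand setting of the counting is not given in the sources used here.

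Levels can be compared between genes per length, in the FPKM values that the authors deposited. In shCtrl, 33 of the 52 genes reached a mean of 1 FPKM and 16 reached 10. The highest levels were PLXNB2 at 96.7 ± 2.69, EPHA2 at 90.3 ± 2.26 and SEMA4B at 79.9 FPKM, followed by PLXND1 at 62.0 ± 1.89 and SEMA7A at 60.3 ± 0.413 FPKM. The last 2 did not differ beyond their spread. In shPARP1, SEMA7A took the top place with 115 ± 4.54 FPKM, ahead of EPHA2 at 79.9 ± 1.99 FPKM, and PLXNB2 fell behind SEMA4B, to 58.5 ± 0.884 FPKM. EPHA2 made up 98.4% of the summed EphA level in shCtrl and 98.9% in shPARP1.

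Summed by class, FPKM were lower in each shPARP1 library than in every shCtrl library for 7 of the 8 classes. The plexin sum went from 194 ± 5.86 to 132 ± 2.96 FPKM, that of the neuropilins from 32.98 ± 0.27 to 21.4 ± 0.31 FPKM and that of the ephrin-B genes from 12.6 ± 0.30 to 7.33 ± 0.24 FPKM. The class 4 to 7 semaphorins were the exception, with 241.39, 239 and 232 FPKM in shCtrl and 260, 249 and 241.74 FPKM in shPARP1, so the groups barely missed each other. Summed as TMM-scaled CPM, a scale chosen for this after seeing the data, that class overlapped between the groups (1141 ± 26.6 and 1166 ± 42.5 CPM), and the other 7 classes were lower without overlap. SEMA7A alone made up 25.4% ± 0.53 of the summed FPKM of that class in shCtrl and 46.0% ± 0.55 in shPARP1. All semaphorins together overlapped between the groups (282 ± 5.21 and 290 ± 11.1 FPKM). Their share of the summed level of all 52 genes went from 38.5% ± 0.10 to 46.3% ± 0.57, while that of the plexins went from 26.5% ± 0.35 to 21.1% ± 0.28.

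**Figure D3:**
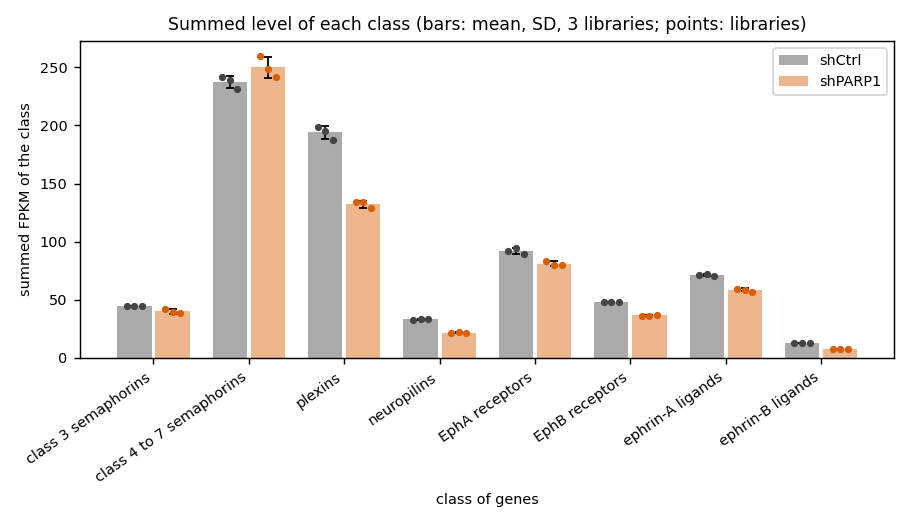
Summed FPKM of each class, as the mean of 3 libraries (bars, with SD) and in each library (points). Plexins drop from 194 to 132 FPKM, and the class 4 to 7 semaphorins stand at 238 and 250 FPKM, with the nearest libraries at 241.39 and 241.74 FPKM and overlapping groups when summed as TMM-scaled CPM.

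Values of known partners are set side by side here for pairs chosen after their values were seen, among genes of which 30 of 43 fell, and no test of a pair was made. SEMA4C (-0.74) and its receptor PLXNB2 (-0.77) fell, as did SEMA3F (-0.51) and its co-receptor NRP2 (-0.63), and EFNB2 (-0.57) and its receptor EPHB4 (-0.56). SEMA4D did not pass (-0.07) while its receptor PLXNB1 fell (-0.46), and SEMA3B rose (0.39) while both neuropilins fell. EFNA1 stood at -1.29 and its receptor EPHA2 at -0.22, and the difference between the genes was not tested. For SEMA7A, the receptor gene PLXNC1 had 1 to 10 counts per library, while the other receptor, the integrin beta-1 subunit ITGB1, went from 507 ± 32.2 to 304 ± 6.93 CPM (-0.74). PLXND1 (-0.76) fell, while its ligand SEMA3E had group means under 3 CPM and did not pass (-0.02). The semaphorin SEMA6A was measured beside its receptors PLXNA2 and PLXNA4, both with at most 10 counts in any library.

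Genes that act with these families were followed in 4 lists drawn from textbook knowledge, which held 107 genes in the table. Of 97 tested, 49 fell and 19 rose, against 28.5% called lower and 27.3% called higher over all genes. Co-receptors of semaphorins and ligands of neuropilins fell for 12 of 15 and rose for none (median log2 fold change -0.74). The heparan sulfate proteoglycan SDC3 went from 545 ± 18.6 to 272 ± 5.26 CPM (-1.004). The adhesion molecule L1CAM, part of the SEMA3A receptor complex, went from 660 ± 12.4 to 385 ± 6.99 CPM (-0.78). ERBB2 (-0.89), a receptor kinase that associates with B plexins, and PTK7 (-0.85) and ITGB1 fell as well.

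Proteases that shed or process the ligands and receptors fell for 9 of 12 and rose for none (median -0.43), among them ADAMTS1 (-0.89), the proprotein convertase FURIN (-0.64), which cleaves class 3 semaphorins, the gamma-secretase subunit NCSTN (-0.49), the sheddase ADAM17 (-0.60) and MMP14 (-0.36). Effectors inside the cell went both ways. Plexin effectors rose for 13 and fell for 12 of 33 (median 0.00), with rises of the GTPase RAC1, from 248 ± 4.74 to 392 ± 7.83 CPM (0.66), of the cofilin kinase LIMK1 (0.53) and of the actin-oxidising enzyme MICAL2 (0.51), and with a fall of the guanine nucleotide exchange factor FARP1 (-0.60). GIPC1, an adaptor of neuropilin-1, rose (0.41). Eph and ephrin effectors fell for 17 and rose for 6 of 38 (median -0.18), with falls of the phosphatases PTPN1 (-0.66) and INPPL1 (-0.56), the scaffold FLOT1 (-0.42) and PTPN13 (-0.67) and a rise of the adaptor CRK (0.55). Called in either direction were 80% of tested co-receptors and neuropilin ligands, 75% of proteases, 75.8% of plexin effectors and 60.5% of Eph and ephrin effectors. Over all genes this share was 55.7%, with 28.5% lower and 27.3% higher, so that of the Eph and ephrin effectors was close to it.

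The tested family genes were longer and richer in GC than genes in general, and log2 fold changes varied with length in these libraries. Their median merged exon length was 6435 bases and their median GC content 59.4%, against 4491 bases and 49.1% over all genes tested. With all tested genes split into 4 equal groups by exon length, the median log2 fold change went from 0.17 in the shortest to 0.02, -0.06 and -0.12 in the longest. With a correction for length and GC content, 28 of the 43 genes were called lower and 4 higher, and their median was -0.36. Over all genes, 4858 were then called higher and 4207 lower. Of the 33 called genes, 10 had a value smaller and 3 a value larger by over 1.5 times. EFNB3 (-2.02), EFNA1 (-1.38) and SEMA7A (0.95) kept their size, PLXNB2 (-0.56) and PLXND1 (-0.51) were smaller, and SEMA3B (0.62) and PLXNA1 (0.52) were larger than before correction.

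**Figure D4:**
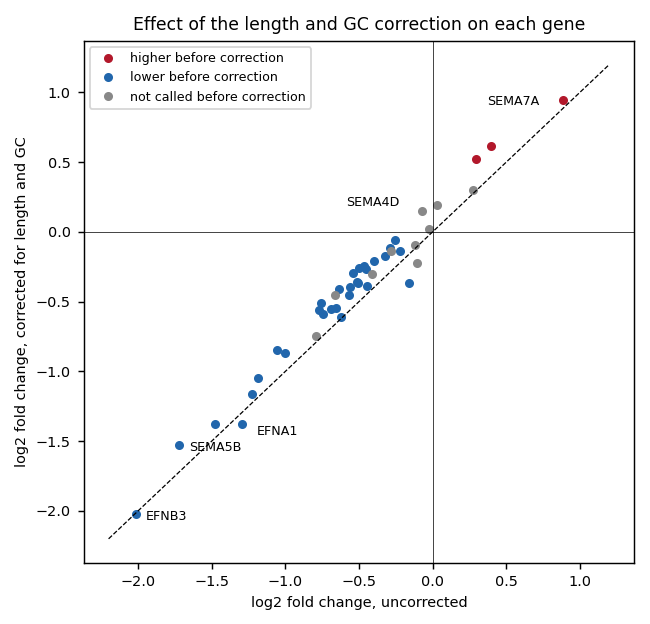
Log2 fold change of the 43 tested genes before (x axis) and after (y axis) the correction for length and GC content, with a dashed line of equal values. Most points lie above the line, EFNB3 stays near -2.0, and SEMA4D moves from -0.07 to 0.15.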

How the data were processed

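The authors deposited raw read counts per gene and FPKM values, rounded, with 1 column for each of the 6 libraries. The submitters' processing notes name GRCh38, bcl2fastq, TopHat2 and edgeR and give no versions. How reads were assigned to genes, with which annotation and strand option, is not stated there, so reads of a gene and of its antisense partner may not have been separated, and reads of close paralogs are uncertain.

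Differences were tested on the counts with edgeR 4.0.16 (R 4.3.3): filterByExpr (16040 of 30403 genes kept), TMM scaling and the robust quasi-likelihood F test, fitted on all genes and adjusted by Benjamini-Hochberg over all of them. The standard error is the log2 fold change divided by the square root of F. Gene coordinates, lengths and GC content came from GENCODE 29 on GRCh38 (97.4% of genes matched by Ensembl identifier). GC content was that of the longest transcript, and 99.2% of tested genes had both values. To correct for both, the deviation of each library from the gene mean was regressed on natural splines (4 degrees of freedom each) over genes of at least 1 CPM, and entered as an offset. Promoter stretches came from RefSeq (GRCh38.p14). Entries existed for 46 of the 52 genes, and motif shares used the first entry of each gene.

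Library values are printed for called genes changed at least 1.5-fold (log2 0.58) with 2 CPM or more in a group, and for the gene of highest FPKM in each of the 8 classes. Up to 5 called genes of each pathway list are named by smallest p, and others were chosen after their values were seen. Stretches were printed for genes chosen after their values were seen, where no annotated exon overlapped. The genes and lists were chosen with earlier results of these data known. Within a group, libraries differed by more than sampling noise (chi-square per degree of freedom 2.44 to 4.35). Each was counted as 1 replicate, although such differences may be technical and do not show that the cultures were separate. Alternatives used DESeq2 1.42.0 and limma 3.58.1, other scalings and filters, log2(FPKM + 1) and log2(FPKM + 0.1), the correction above, a replicate block and leaving out each library.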

Additional observations from a re-analysis of the deposited data

How the results depend on the processing

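Of the 33 called genes, 28 kept their direction and call in all 17 other settings, the exceptions being EFNA4, EPHA5, EPHB2, EPHB6 and SEMA6A. With edgeR's likelihood-ratio test, SEMA4A and EPHA3 were called too. SEMA6A ended with limma-trend on log2(FPKM + 1) (adjusted p = 0.0690) and log2(FPKM + 0.1) (0.0723) and with the length and GC correction (edgeR adjusted p = 0.0772). The median over the family genes was -0.25 with log2(FPKM + 1), which understates the change of low genes, -0.41 with log2(FPKM + 0.1) and -0.36 with the length and GC correction. A minimum of 1.5-fold left 1 rise and 15 falls in the family, 1 rise and 21 falls in the pathway lists, and 1472 rises and 1968 falls over all genes. Signs turned for genes that were not called. SEMA3E gave 0.004 and 0.014 on the 2 FPKM scales and 0.022 with the length and GC correction, and SEMA4D gave 0.15 with that correction. Without 1 library, SEMA3E ran from -0.194 to 0.152, SEMA3C from -0.244 to 0.082, SEMA5A from -0.018 to 0.095 and EPHA1 from -0.64 to 0.011. The cause of these shifts was not tested. Deviations of same-numbered replicates correlated weakly (r 0.071, -0.013 and 0.060 across genes for replicates 1, 2 and 3). Differently numbered libraries gave -0.096 to 0.037. The labels do not say whether equal numbers share a culture or a day, and weak correlations over 3 libraries per group cannot decide it. With the replicate block, 3 family genes rose and 30 fell, as without it, and 4443 genes rose and 4617 fell overall. For the 9 untested genes, such as PLXNC1 with 1 to 10 counts per library, a change was not detectable at this depth.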
